A study of Homo sapiens and Mus musculus with 76 samples.

Results

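The 76 genes described here carry the MRPL and MRPS symbols of mitochondrial ribosomal proteins, 47 of the large subunit series and 29 of the small subunit series, out of 23571 symbols in the human tables. They were chosen by symbol alone: MRPL or MRPS, a number and an optional letter A, B or C. Each had 1 gene entry, and 5 similar symbols (MRP63, MRPL23-AS1, MRPL42P5, MRPL45P2 and MRPS31P5) were left out. Libraries were made by Smart-Seq2 or SMART-Seq, which copy whole polyadenylated transcripts with a template-switching enzyme and amplify the copies by PCR. The series set variants of the improved protocol beside the commercial one. Of its 76 libraries the 63 human ones, in 13 groups, were used.

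HEK293T is a line grown from human embryonic kidney. Its cells were taken singly through Smart-Seq2 (7 cells), through variants 1 to 4 of it (8, 8, 6 and 6 cells) and through standard SMART-Seq (4 cells); what sets the variants apart is not in the labels. Smart-Seq2 was also run on dilutions of HEK293T total RNA, with 3 libraries of 1 ng, 3 of 100 pg and 2 of 10 pg, and on pools of 100, 50 or 10 lysed HEK293T cells, with 3 libraries of each size. DG-75, a human B lymphoma line, gave 7 single cells with Smart-Seq2. No label names a culture, passage, allele or treatment, so the spread behind each p-value is that among libraries and may be technical, and each group of single cells counts as 1 sample without a test.

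The mitochondrial ribosome translates the few messenger RNAs encoded by mitochondrial DNA, which specify core subunits of the respiratory chain. Its RNAs are made inside the organelle, whereas all of its proteins are encoded in the nucleus, made in the cytosol and imported, so the 2 subunits depend on coordinated supply from many unlinked nuclear genes. Proteins with low numbers have relatives in bacterial ribosomes, and those with higher numbers were gained by the mitochondrial ribosome. By number, 44 of the genes here fall in the bacterial range (up to 36 for MRPL and up to 21 for MRPS) and 32 lie above it. Names do not always give the place in the particle: MRPS18A and MRPS30 sit in the large subunit in structures of the ribosome, and the protein of MRPS36, now listed as KGD4, is known as an adaptor of the 2-oxoglutarate dehydrogenase complex.

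The upstream sequences of 68 of the 76 genes could be read from RefSeq (GRCh38.p14), each with 250 bases before and 50 after the annotated start. Promoters of this family are known for ETS-type and YY1 sites, and 5 windows are shown because they belong to genes the results turn on: MRPL51, the member with the highest mean CPM over the human libraries, MRPL12, the member with the lowest ratios between single-cell groups, and the paralogues MRPS18A, MRPS18B and MRPS18C. Capitals mark exact matches, on either strand, to CCGGAAG (the ETS motif bound by GABPA), AAGATGGCG (YY1) or GCGCATGCG (NRF1). The windows are chr12:6493213-6493512 on the minus strand for MRPL51, chr17:81703117-81703416 on the plus strand for MRPL12, chr6:43687742-43688041 on the minus strand for MRPS18A, chr6:30617590-30617889 on the plus strand for MRPS18B and chr4:83455808-83456107 on the plus strand for MRPS18C.
MRPL51: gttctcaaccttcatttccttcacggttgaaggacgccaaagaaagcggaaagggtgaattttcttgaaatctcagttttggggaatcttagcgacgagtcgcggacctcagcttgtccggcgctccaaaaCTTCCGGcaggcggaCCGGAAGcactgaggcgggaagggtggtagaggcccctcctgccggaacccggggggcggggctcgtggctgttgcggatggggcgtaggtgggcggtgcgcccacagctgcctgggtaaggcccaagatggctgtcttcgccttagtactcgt
MRPL12: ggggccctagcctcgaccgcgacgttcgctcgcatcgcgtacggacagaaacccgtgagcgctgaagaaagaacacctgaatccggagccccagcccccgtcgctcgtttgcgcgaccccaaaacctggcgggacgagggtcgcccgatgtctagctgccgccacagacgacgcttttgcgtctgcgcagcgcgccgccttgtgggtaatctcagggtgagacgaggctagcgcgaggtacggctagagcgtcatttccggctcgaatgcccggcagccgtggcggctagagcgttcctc
MRPS18A: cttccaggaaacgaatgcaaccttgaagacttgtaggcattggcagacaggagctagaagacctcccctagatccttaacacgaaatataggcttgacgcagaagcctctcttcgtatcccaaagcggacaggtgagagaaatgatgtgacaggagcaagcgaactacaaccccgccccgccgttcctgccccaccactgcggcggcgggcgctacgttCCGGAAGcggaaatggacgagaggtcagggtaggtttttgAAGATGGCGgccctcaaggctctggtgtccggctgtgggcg
MRPS18B: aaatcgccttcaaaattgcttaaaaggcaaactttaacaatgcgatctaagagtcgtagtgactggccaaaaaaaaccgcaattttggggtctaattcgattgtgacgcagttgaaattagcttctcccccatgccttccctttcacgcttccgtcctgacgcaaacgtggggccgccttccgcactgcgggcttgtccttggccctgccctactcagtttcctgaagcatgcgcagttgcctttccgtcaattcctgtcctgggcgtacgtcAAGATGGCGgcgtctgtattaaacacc
MRPS18C: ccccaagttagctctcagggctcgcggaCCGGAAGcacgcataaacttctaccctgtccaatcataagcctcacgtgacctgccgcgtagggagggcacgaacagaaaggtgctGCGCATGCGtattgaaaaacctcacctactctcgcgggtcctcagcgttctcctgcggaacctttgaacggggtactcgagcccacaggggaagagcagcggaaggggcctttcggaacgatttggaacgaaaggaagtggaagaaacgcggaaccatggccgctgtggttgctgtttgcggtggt

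MRPL51 held the ETS motif in both orientations, MRPS18A the ETS and YY1 motifs, MRPS18B the YY1 motif alone, MRPS18C the ETS and NRF1 motifs, and MRPL12 none of these. Across the 68 windows, 28 (41.2%) held CCGGAAG, against 10.7% of 27305 windows of the same length and 19.0% of the 10757 windows of genes with a mean of at least 1 CPM. AAGATGGCG was in 13 (19.1%), against 1.85% and 3.97%. GCGCATGCG was in 3 (4.41%), against 2.10% and 3.84%, CCAAT in 20 (29.4%), against 35.7% and 37.0%, and TATAAA in 3 (4.41%), against 11.95% and 5.73%. These are counts of letters in a window and show no binding, and the ETS and YY1 motifs can share the letters AAG. MRPL46 and MRPS11 lie head to head on chromosome 15 with starts 320 bases apart, and the window of MRPL46 held the YY1 motif.

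Libraries of RNA dilutions and cell pools had 1.88 to 5.55 M gene reads (1 M is 1000000), and single cells 2.24 to 27.9 M, of which the 76 genes took at least 20672 in any library. All 76 passed the filter on low counts in each comparison of dilutions and pools. B cell markers (9 genes) summed to between 795 and 8530 CPM (reads per 1000000 gene reads) in DG-75 cells and to at most 32.8 CPM in any HEK293T library. The 7 HEK293T markers were at 4.63 CPM or less in DG-75 cells, with KRT18, PAX2 and LHX1 at 0. T cell genes were at or near 0 in both lines. Of the 100-cell libraries, replicates 1 and 2 differed by a mean chi-square per gene of 1.75, the lowest of any pair, and both differed from replicate 3 by about 19 (19.0 and 18.7), so these 2 may not be independent, the spread within 100 cells may be understated, and results of 100 cells are also given without single replicates. One Smart-Seq2 HEK293T cell (replicate 2) stood apart with a summed level of 6107 CPM.

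Summed over the 76 genes, lysed cells held more of the library than purified RNA did. The sum was 13883, 13317 and 12882 CPM in the libraries of 1 ng, 12277, 12569 and 12668 CPM with 100 pg, and 11511 and 11661 CPM with 10 pg. It was 19330, 18655 and 21328 CPM in 100 cells, 17674, 16744 and 19965 CPM in 50 cells and 15592, 14978 and 16794 CPM in 10 cells. In CPM every pool lay above every RNA dilution, and the 100-cell and 10-cell pools did not overlap. Scaled by TMM over all human libraries, replicate 2 of the 10 cells (12944 CPM) lay below replicate 1 of 1 ng (13191.5 CPM), while pools of 100 and 10 cells still did not overlap. Of the 76 genes, 44 had their highest mean of the 6 inputs in 100 cells, and 43 went up in mean from 10 through 50 to 100 cells while 16 went down. These means are in CPM, and the same counts were not made over all genes, so they are no result about the family. Per cell or per amount of RNA such sums say nothing: in a pool, fewer cells with a transcript and less of it in each cell cannot be told apart.

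**Figure D1:**
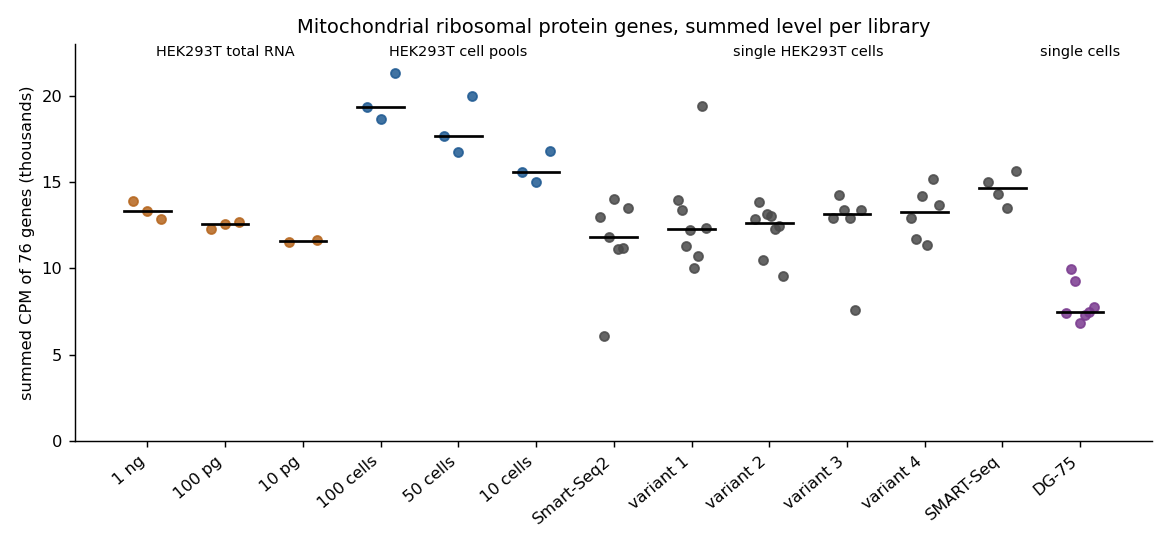
Summed level of the 76 genes in each human library, on a linear axis in units of 1000 CPM; each point is a library, horizontal bars are medians of the group, and colours separate RNA dilutions, cell pools, single HEK293T cells and single DG-75 cells. The 9 pools lie between 14978 and 21328 CPM, above all 8 RNA dilutions on this scale, and the 7 DG-75 cells lie between 6812 and 9974 CPM.

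Libraries of 100 lysed cells and of 1 ng of RNA were compared to ask how the source of the RNA changes what is measured. Most genes of the family were higher in the lysed cells, led by MRPL33, MRPS36, MRPL23, MRPL13 and MRPL39, and 4 were lower. In the edgeR quasi-likelihood test, adjusted over all 11487 genes tested, 56 of the 76 rose and 4 fell at an adjusted p under 0.05, where 29.7% of all genes rose and 33.1% fell. The groups did not overlap for 60 higher and 4 lower genes, against 31.0% and 35.6% of all genes. The median log2 fold change was 0.84 over the family and -0.03 over all genes. The large subunit series had 38 of 47 higher and 2 lower, and the small subunit series 18 of 29 higher and 2 lower. By number, 32 of 44 genes of the bacterial range and 24 of 32 of the higher numbers rose.

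MRPL33, a short protein of the large subunit with a bacterial relative, had the largest difference. It stood at 51.8, 46.4 and 50.9 CPM in 1 ng and at 224, 192 and 176 CPM in 100 cells. The groups did not come near each other, and the log2 fold change was 2.22 ± 0.19 (SE, n = 3 and 3, edgeR adjusted p = 1.36e-08). MRPL39, a large subunit protein without a bacterial relative, was at 79.0, 61.3 and 56.7 CPM in the RNA and 192, 182 and 172 CPM in the cells, a log2 fold change of 1.70 ± 0.19 (edgeR adjusted p = 4.53e-07). For MRPL13, the relative of bacterial L13, the values were 329, 236 and 267 CPM against 946, 858 and 601 CPM, with replicate 3 of the cells the lowest of its group but well above the RNA (log2 fold change 1.76 ± 0.20, edgeR adjusted p = 4.44e-07). MRPL23, whose bacterial relative lines the exit of the protein tunnel, was at 45.7, 66.2 and 47.5 CPM against 148, 141 and 176 CPM (log2 fold change 1.78 ± 0.19, edgeR adjusted p = 2.89e-07). An antisense gene named for MRPL23 has an entry of its own, and whether strand was used in counting is not given in the sources used here, so reads of the 2 cannot be told apart. MRPS36 was at 17.0, 20.6 and 17.5 CPM in RNA and 62.5, 65.2 and 37.3 CPM in cells, again without overlap (log2 fold change 1.82 ± 0.25, edgeR adjusted p = 5.17e-06).

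The 4 genes that fell were MRPL4, MRPL49, MRPS2 and MRPS12, and in each the groups did not overlap. MRPL4, the relative of a bacterial protein that reaches into the exit tunnel, was at 211, 268 and 256 CPM in 1 ng and 87.8, 77.0 and 166 CPM in 100 cells. Replicates 1 and 2 of the cells held the low values and replicate 3 was closer to the RNA. Its log2 fold change was -0.92 ± 0.22 (edgeR adjusted p = 0.00155). MRPL49 was at 189, 167 and 166 CPM against 72.5, 81.6 and 119.9 CPM, and fell by 0.70 on the log2 scale (edgeR adjusted p = 0.00393). MRPS2 fell by the same amount, from 273, 329 and 282 CPM to 126, 131 and 207 CPM (edgeR adjusted p = 0.0034). MRPS12, the relative of the bacterial S12 protein at the decoding centre, was at 116, 127 and 144 CPM against 67.2, 63.8 and 99.0 CPM and fell by 0.52 on the log2 scale (edgeR adjusted p = 0.0256). MRPS12 no longer passed without replicate 1 or 2 of the 100 cells (edgeR adjusted p = 0.143 and 0.168) or replicate 2 or 3 of 1 ng (0.0538 and 0.121), or in DESeq2 (0.0536). Neither MRPS2 nor MRPS12 passed with all 6 input groups in 1 fit (edgeR adjusted p = 0.0508 and 0.124). With replicate 1, 2 or 3 of the 100 cells left out, 54, 55 and 56 of the 76 genes rose. Of all genes 3040 of 11774, 3190 of 11815 and 3833 of 11781 did.

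Within the family, base composition of the transcript moved with these differences more than its length did. Over the 76 genes Spearman's rho of the log2 fold change was -0.47 with GC and -0.175 with length, as a description. The 76 transcripts had a median length of 1366 bases and a median GC of 49.5%, where expressed genes had medians of 2861 bases and 48.8%. Of the 25 members with the lowest GC (34.1 to 45.6%) 22 rose, none fell, and the median log2 fold change was 1.23. Of the 25 with the highest GC (54.15% and above) 15 rose, 3 fell and the median was 0.54. With a smooth trend on length and GC over all genes removed, 24 of the 76 rose, 21 fell and the median was 0.00, while 21% of all genes rose, 38.6% fell and their median was -0.23. Both trends were removed at once, so the parts of length and GC cannot be told apart. In that fit the log2 fold change of MRPL33 was -0.043 ± 0.13 (edgeR adjusted p = 0.788) and that of MRPS36 -0.36 ± 0.16 (edgeR adjusted p = 0.0677), and MRPL13 and MRPL39 were at 0.08 each and did not pass. MRPL23 kept its call there, with a log2 fold change of 1.66 ± 0.15 (edgeR adjusted p = 2.12e-07). The HEK293T markers also differed, at 742 to 843 CPM in 1 ng and 275 to 329 CPM in 100 cells. The part of the marker difference in these results was not tested.

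**Figure D2:**
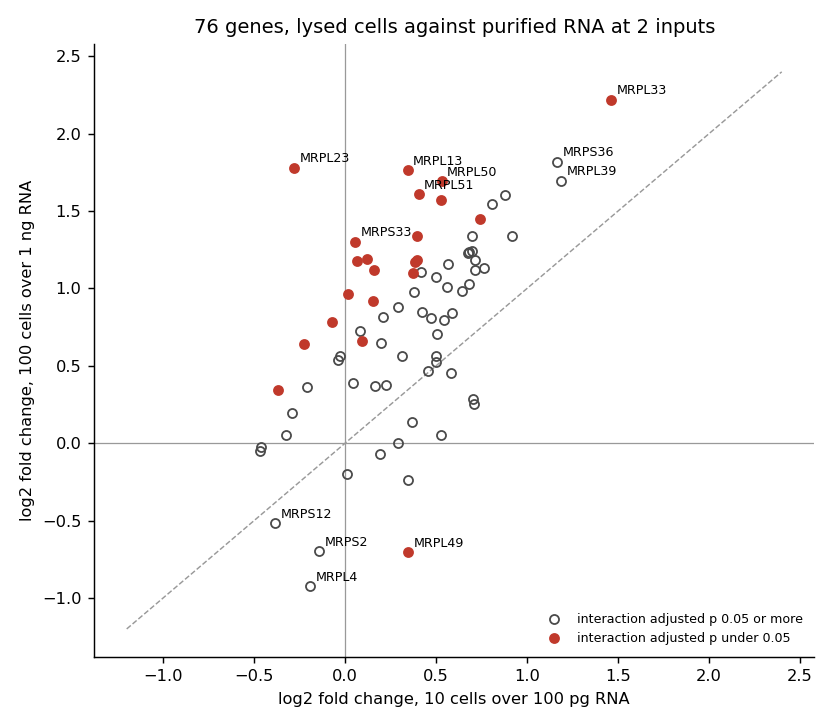
Log2 fold change of each of the 76 genes in 100 cells over 1 ng of RNA (vertical) against 10 cells over 100 pg of RNA (horizontal), from edgeR; filled red points have an interaction of source and input with an adjusted p under 0.05, and the dashed line marks equal changes. Most points lie above 0 on both axes, MRPL33 is at the upper right with 2.22 and 1.46, and MRPL23 stands at 1.78 and -0.28.

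Pools of 10 lysed cells were set against 100 pg of RNA as the smaller input, and many of the genes were again higher in cells. Of the 76 genes 30 rose and none fell (edgeR, adjusted over 11671 genes), where 7.81% of all genes rose and 11.5% fell, and the median log2 fold change was 0.38 against -0.02 over all genes. At an unadjusted p under 0.05, 42 were higher and 5 lower, with 14.2% and 17.9% of all genes, and DESeq2 called 36 and 0, with 10.0% and 13%. The groups did not overlap for 44 and 4 (18.3% and 19.4% of all genes). MRPL33 was at 53.3, 60.1 and 59.7 CPM in 100 pg and 167, 162 and 155 CPM in 10 cells (log2 fold change 1.46 ± 0.16, edgeR adjusted p = 6.75e-05). MRPL39 stood at 76.8, 77.9 and 93.1 CPM against 172, 191 and 209 CPM (1.19 ± 0.16, edgeR adjusted p = 0.000298). In both genes all 3 pools lay far above all 3 dilutions. With all 6 input groups in 1 fit MRPL39 did not pass (1.18 ± 0.59, edgeR adjusted p = 0.254).

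MRPS31, a small subunit protein without a bacterial relative, was at 50.3, 46.9 and 40.2 CPM in 100 pg and 88.2, 88.1 and 86.3 CPM in 10 cells (log2 fold change 0.92 ± 0.20, edgeR adjusted p = 0.00634). The pseudogene MRPS31P5 has its own entry, and how reads with several matches were counted is not given in the sources used here. MRPS36 (1.17 ± 0.31, edgeR adjusted p = 0.0202) and MRPS18C (0.88 ± 0.25, edgeR adjusted p = 0.0282) also rose. MRPS36 missed the threshold without replicate 1 or 2 of the 10 cells (adjusted p = 0.0758 and 0.11) or replicate 3 of 100 pg (0.0517), and MRPS18C without replicate 1 or 3 of the 10 cells (0.114 and 0.129) or replicate 4 of 100 pg (0.057). Without replicate 1 of the 10 cells 14 of the 76 genes rose (445 of all 12056 genes), and without replicate 3 of them 18 did (631 of all 12077). Of the 100 pg libraries, leaving out replicate 3 left 20 (789 of all 12066), and all 6 input groups in 1 fit gave 12 (3.23% of all genes). With the length and GC trend removed 9 genes rose and 11 fell (4.61% and 11.2% of all genes), and MRPS31, MRPS36 and MRPS18C did not pass (adjusted p = 0.364, 0.702 and 0.629).

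The change of the source effect with input was tested as an interaction, (100 cells over 1 ng) over (10 cells over 100 pg). It was above 0 for 63 of the 76 genes, and 21 passed upwards and 1 downwards (edgeR, adjusted over 12192 genes), where 7.23% and 10.7% of all genes did. MRPL23 had the largest value, 2.07 ± 0.33 on the log2 scale (edgeR adjusted p = 0.00032). It was at 51.3, 29.1 and 33.4 CPM in 100 pg and 23.9, 31.5 and 39.3 CPM in 10 cells, groups that overlapped, so the excess seen in 100 cells was not found in 10. MRPL13 (1.42 ± 0.23, edgeR adjusted p = 0.000392), MRPS33 (1.26 ± 0.25, edgeR adjusted p = 0.00186), MRPL51 (1.21 ± 0.20, edgeR adjusted p = 0.000467) and MRPL50 (1.16 ± 0.25, edgeR adjusted p = 0.0032) followed. MRPL49 alone passed downwards, at -1.04 ± 0.26 (edgeR adjusted p = 0.00899). The counts depended on the fit. Without replicate 3 of the 100 cells 31 genes passed upwards and 8 downwards (10.5% and 12.9% of all genes), and with the length and GC trend removed 9 and 3 (3.79% and 8.84%). All 6 input groups in 1 fit gave 12 and 0 (2.42% and 3.60%), the replicate block 6 and 0 (2.48% and 5.39%), and the same libraries without the block 5 and 0 (1.81% and 4.2%). DESeq2 called 31 and 1 (9.65% and 11.1%), and library totals gave 12 and 4 (3.61% and 16.3%). With all 6 groups, with the block and in the same libraries without it MRPL49 did not pass (adjusted p = 0.0719, 0.0531 and 0.0688), nor did MRPS33 (0.119, 0.0511 and 0.0629). MRPL50 did not pass with the block, in the same libraries without it or with the trend removed (0.0633, 0.115 and 0.0513), and MRPL13 did not with the trend removed (0.0917).

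Pools of 100, 50 and 10 cells were compared to see how the number of cells bears on the family. From 10 to 100 cells 41 of the 76 genes rose and 1 fell (edgeR, adjusted over 11514 genes), where 13.6% of all genes rose and 17.4% fell. The groups did not overlap for 50 and 1 (19.2% and 24.5%), and the median log2 fold change was 0.56 against -0.05 over all genes. MRPL51, a large subunit protein without a bacterial relative, was at 478, 451 and 513 CPM in 10 cells, 649.8, 573 and 898 CPM in 50 cells and 933, 848 and 1061 CPM in 100 cells. Its 10-cell and 100-cell pools were far apart and the 50-cell pools lay between, replicate 3 reaching into the 100-cell range; the log2 fold change of 100 over 10 cells was 1.24 ± 0.14 (edgeR adjusted p = 4.59e-05). MRPS21, the relative of bacterial S21, was at 299, 317 and 355 CPM in 10 cells and 574, 561 and 639 CPM in 100 cells (1.13 ± 0.14, edgeR adjusted p = 9.36e-05). MRPL13 was at 415, 389 and 356 CPM in 10 cells against 946, 858 and 601 CPM in 100 cells (1.32 ± 0.18, edgeR adjusted p = 0.000131), and MRPS33, a small subunit protein without a bacterial relative, at 135, 136 and 157 CPM against 238, 243 and 288 CPM (1.10 ± 0.16, edgeR adjusted p = 0.000214). Neither gene's pools of 10 and 100 cells overlapped. MRPL23 went from 23.9, 31.5 and 39.3 CPM through 92.1, 69.9 and 113 CPM to 148, 141 and 176 CPM, so that no pool of one size overlapped with another size (100 over 10 cells 2.56 ± 0.22, edgeR adjusted p = 9.27e-06). MRPL49 fell by 0.63 on the log2 scale (edgeR adjusted p = 0.0301). Its values were 199, 148 and 158 CPM in 10 cells and 72.5, 81.6 and 119.9 CPM in 100 cells, and it missed the threshold without replicate 1 or 2 of the 100 cells (adjusted p = 0.182 and 0.126) or replicate 1 or 3 of the 10 cells (0.153 and 0.0667). With the length and GC trend removed 20 rose and 9 fell (11% and 19.7% of all genes). The HEK293T markers summed to 561 to 621 CPM in 10 cells, 354 to 365 CPM in 50 and 275 to 329 CPM in 100, and their part in these results was not tested.

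**Figure D3:**
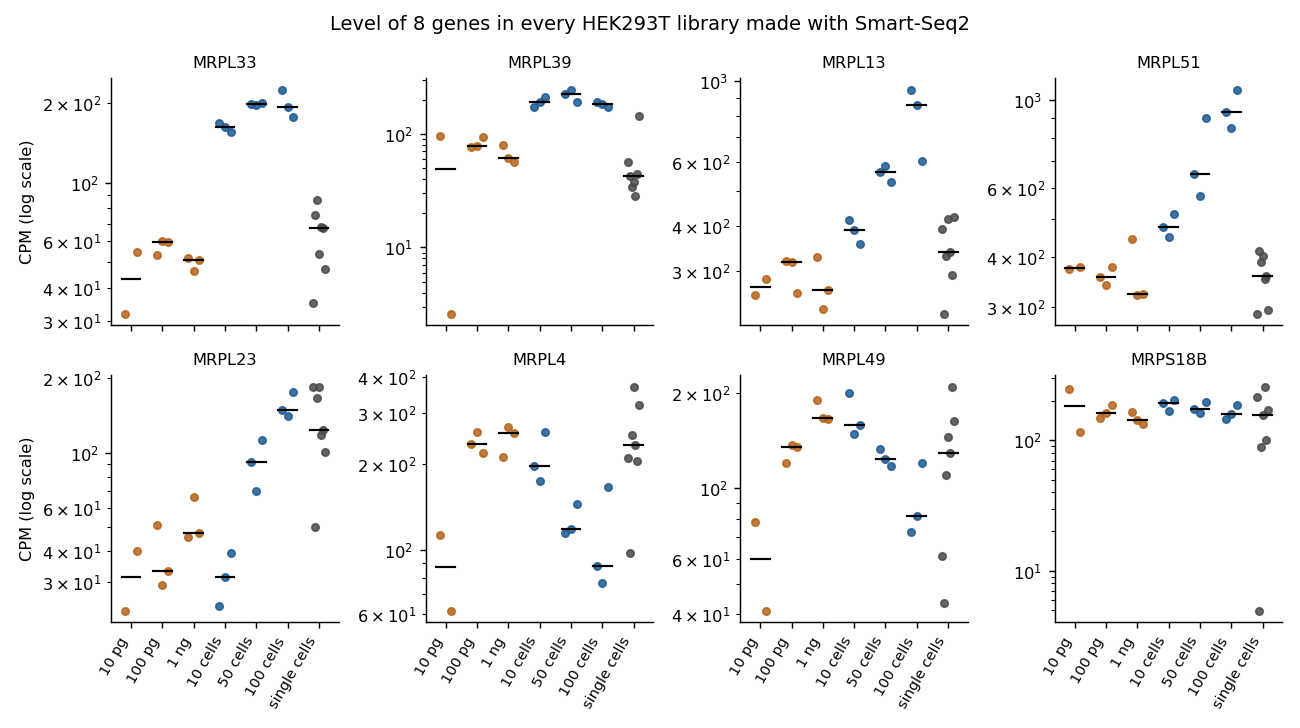
CPM of 8 genes on log axes that differ between panels, in every HEK293T library of the input series and in single HEK293T cells made with Smart-Seq2; points are libraries and bars medians. MRPL13, MRPL51 and MRPL23 climb from 10 to 100 cells, MRPL33 and MRPL39 are high in pools of every size and low in RNA and in single cells, MRPL4 and MRPL49 are lowest in 100 cells among pools, and MRPS18B stays at 117 to 249 CPM in all inputs of RNA and pools.

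Steps between neighbouring pool sizes were smaller. Between 100 and 50 cells no gene of the family passed (edgeR, adjusted over 11354 genes, of which 0% rose and 0% fell), although 67 of 76 were higher in 100 cells and the median log2 fold change was 0.28. At an unadjusted p under 0.05, 20 were higher and 0 lower, with 4.76% and 4.09% of all genes, and DESeq2 called 1 and 0, with 0.264% and 0%. Without overlap there were 22 and 0 (7.31% and 7.94%). In these pools libraries with the same number deviated together, and with the replicate number as a block 31 rose and 0 fell, where 8.38% of all genes rose and 5.56% fell. Between 50 and 10 cells 4 rose and 1 fell (3.11% and 8.06% of 11451 genes). Those that rose were MRPL23 (log2 fold change 1.63 ± 0.25, edgeR adjusted p = 0.000951), MRPS33 (0.78 ± 0.22, 0.0312), MRPL51 (0.65 ± 0.19, 0.0389) and MRPL13 (0.61 ± 0.15, 0.0169), and MRPL4 fell by 0.65. MRPL23 passed without any single library, and the other 4 did not pass without replicate 1 of the 50 cells or replicate 1 or 3 of the 10 cells (adjusted p of 0.0509 to 0.223). With the length and GC trend removed MRPS33, MRPL51 and MRPL13 did not pass (0.0629, 0.318 and 0.899). DESeq2 called 16 higher and 1 lower there (5.20% and 8.25% of all genes), and without replicate 2 of the 50 cells 17 rose (4.22%).

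Dilution of purified RNA changed few of these genes. Between 1 ng and 100 pg none passed in edgeR, and of 11469 genes 0% were higher and 0.0262% lower. At an unadjusted p under 0.05, 8 were higher and 2 lower in 1 ng, with 3.26% and 4.48% of all genes. DESeq2 called 1 higher and 0 lower, where 9 and 25 of all 11469 genes were called. Without overlap there were 13 and 5 (7.66% and 7.33%). Between 1 ng and 10 pg 6 rose and none fell, where 16.9% of 11087 genes rose and 1.54% fell, and the median log2 fold change was 0.16 against 0.24 over all genes. At an unadjusted p under 0.05 there were 11 higher and 1 lower, with 21.8% and 5.20% of all genes, and DESeq2 called 12 and 3, with 22.9% and 6.95%. Without overlap there were 27 and 3 (36.1% and 10.4%). MRPL43, a large subunit protein without a bacterial relative, had the largest difference, with 222, 238 and 231 CPM in 1 ng and 41.1 and 55.3 CPM in 10 pg (log2 fold change 2.30 ± 0.22, edgeR adjusted p = 0.0134). MRPL49 (1.59 ± 0.36, 0.0428), MRPL4 (1.54 ± 0.33, 0.036), MRPL48 (1.43 ± 0.30, 0.0349) and MRPS26 (1.10 ± 0.20, 0.0227) also rose with n = 3 and 2, in edgeR. The 2 libraries of 10 pg differed widely, MRPL39 being at 95.4 and 2.59 CPM. Without replicate 1, 2 or 3 of 1 ng 0 genes of the family rose, and 0 of all 10733, 10775 and 10605 genes did. Leaving out replicate 1 or 2 of 10 pg leaves 1 library, assumed to vary like those of 1 ng, so the 28 and 27 genes then higher are no replicated result, where 51.3% and 47.7% of all genes were higher.

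The paralogues MRPS18A, MRPS18B and MRPS18C, which descend from a relative of bacterial S18 and take different places in the ribosome, did not move alike in the input series. MRPS18C was at 33.0, 35.6 and 31.0 CPM in 1 ng and 97.8, 92.1 and 67.5 CPM in 100 cells (log2 fold change 1.61 ± 0.21, edgeR adjusted p = 3.02e-06). MRPS18A was at 109.5, 87.8 and 98.5 CPM against 134, 122 and 183 CPM (0.80 ± 0.19, edgeR adjusted p = 0.00129). MRPS18B was at 166, 144 and 134 CPM against 147, 159 and 185 CPM, and its log2 fold change of 0.37 ± 0.17 did not pass (edgeR adjusted p = 0.0693). Differences between the 3 paralogues were not themselves tested.

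The stalk of the large subunit, which recruits translation factors, is built from MRPL10, MRPL11, MRPL12 and MRPL53 among others. In 100 cells over 1 ng 3 of these 4 rose and none fell. MRPL53 rose by 1.07 ± 0.18, MRPL11 by 0.56 ± 0.17 and MRPL10 by 0.52 ± 0.19 on the log2 scale (edgeR adjusted p = 3.95e-05, 0.00711 and 0.0213). MRPL12 did not pass, at 559, 648 and 566 CPM in RNA and 386, 401 and 659 CPM in cells, groups that overlapped (log2 fold change -0.07 ± 0.18, edgeR adjusted p = 0.754).

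Other genes of mitochondrial translation differed in part the same way in 100 cells over 1 ng. Of 7 further ribosomal proteins with other symbols 6 rose and none fell, among them DAP3, a GTP-binding protein of the small subunit (log2 fold change 0.99 ± 0.18, edgeR adjusted p = 9.79e-05), and GADD45GIP1, also called MRPL59 (1.89 ± 0.22, edgeR adjusted p = 6.12e-07). Of 11 translation factors 5 rose and 2 fell, the latter the elongation factors TUFM (-0.69 ± 0.17, edgeR adjusted p = 0.00167) and GFM1 (-0.44 ± 0.19, edgeR adjusted p = 0.0483). Of 20 assembly and RNA modification genes tested 6 rose and 9 fell, with the helicase DHX30 at -2.62 ± 0.19 (edgeR adjusted p = 2.39e-09). Of 6 genes of mitochondrial transcription 4 rose and 2 fell: SLIRP, an RNA-binding protein, was at 2.13 ± 0.17 and POLRMT, the mitochondrial RNA polymerase, at -2.53 ± 0.33 (edgeR adjusted p = 7.24e-09 and 2.58e-06). In 10 cells over 100 pg the counts of higher and lower genes were 2 and 0, 0 and 0, 2 and 1, and 2 and 1 in the same order.

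Levels per length, from the authors' RPKM column (reads per kilobase and per 1000000 reads), depend on the length used for each gene. The length each RPKM implies lay within 0.8 to 1.25 times the matched transcript's for 50 of the 76 genes, and the order of levels turned on which length was used. By RPKM, MRPL51 was highest in 100 cells with 1408 ± 153 RPKM (SD, n = 3), followed by MRPL20 with 1042 ± 177, MRPS21 with 929 ± 32.9 and MRPL41 with 828 ± 183 RPKM. Their implied lengths were 0.542, 0.794, 0.470 and 0.472 of the transcript's. As CPM per kilobase of transcript, MRPL20 was at 832 ± 145, MRPL51 at 768 ± 86.9 and MRPL13 at 738 ± 165 (SD, n = 3), which did not differ beyond their spread, and MRPS21 and MRPL41 were at 440 ± 31.0 and 393 ± 88.5. MRPL30 was near the low end on both scales, at 23.5 ± 3.23 RPKM and 35.7 ± 4.69 CPM per kilobase. MRPL19 was low by RPKM (37.4 ± 6.07), with an implied length 2.28 times the transcript's, and stood at 85.5 ± 13.6 CPM per kilobase. The RPKM of MRPS18B implied a length of 2.03 bases and was not used, and that of MRPS24 implied 83.7 bases for a transcript of 707, with counts of 2.67 to 16.9 CPM in dilutions and pools that made it the lowest member.

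In single HEK293T cells processed with Smart-Seq2 all 76 genes had reads in all 7 cells. The summed level had a median of 11841 CPM and ranged from 6107 to 14045 CPM. The SD of log2(CPM + 1) between cells had a median of 0.68 over the 75 genes with a mean of at least 20 CPM, against 1.04 over all 7279 such genes. MRPL22, the relative of a tunnel protein, varied least (185 to 273 CPM, SD 0.17), followed by MRPL51 (288 to 414 CPM, SD 0.21) and MRPS21 (182 to 280 CPM, SD 0.21). MRPL34 varied most, from 0.189 to 210 CPM around a median of 107 (SD 2.60), then MRPL46 (0.378 to 158 CPM, SD 2.36) and MRPS18B (4.92 to 259 CPM, SD 1.86). The lowest value of all 3 came from replicate 2, the cell that stood apart. Without it MRPL34 ranged from 66.8 to 210 CPM (SD 0.65), MRPL46 from 74.0 to 158 CPM (SD 0.40) and MRPS18B from 89.2 to 259 CPM (SD 0.60), and MRPL39 (SD 0.82) and MRPL10 (SD 0.81) varied most. The median SD was then 0.40 over the family and 0.73 over all genes, and MRPL22 (0.19) and MRPL51 (0.20) still varied least. Cells are not replicates of a condition, so these ranges carry no test.

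Set beside pools of 10 cells, single cells had lower levels of most of the family: 62 of 76 log2 ratios of summed reads (1 CPM added) were below 0 and their median was -0.38, against -0.03 for all genes. Past 2-fold, 1 was higher and 7 lower of the 75 at 20 CPM or more, where 10.8% and 6.41% of all such genes were. MRPL39 was at 28.3 to 143 CPM (median 42.8) in single cells and 172 to 209 CPM in the pools, and MRPL33 at 35.1 to 86.1 CPM (median 67.2) and 155 to 167 CPM. MRPL10 (ratio -1.36), MRPL17 (-1.12) and MRPS31 (-1.44 on the log2 scale) lay lower too, and in all 5 every cell was below every pool. MRPL23 was the exception, at 50.3 to 185 CPM (median 124) in cells and 23.9 to 39.3 CPM in the 10-cell pools, a log2 ratio of 2.18. Counted over the family, 1 gene was above and 22 were below without overlap. The share of all genes without overlap is not given here, so these counts are no result about the family. Against 10 pg of RNA 7 were higher and 4 lower past 2-fold (20.7% and 17.7% of all genes), with MRPL23 (2.12), MRPL43 (1.78) and MRPS18C (1.62) highest and MRPS31 (-1.45) lowest.

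The variants and SMART-Seq were each set beside the same 7 Smart-Seq2 cells, so their values are given side by side. Variants 1, 2 and 4 differed little from Smart-Seq2 in these genes: past 2-fold there were 0 higher and 1 lower with variant 1 (3.37% and 5.25% of all genes), 0 and 1 with variant 2 (4.66% and 7.38%), and 1 and 0 with variant 4 (6.15% and 6.91%). The 1 lower gene was MRPL23 in both cases, with medians of 50.4 CPM in variant 1 and 42.6 CPM in variant 2 against 124 CPM in Smart-Seq2 cells (2.30-fold and 3.12-fold lower), and the ranges overlapped. With variant 4 MRPL17 was higher, at a median of 116 CPM against 59.3 CPM (1.04), also with overlap. No gene of the family was at 0 in any cell of these 4 groups.

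With variant 3 the summed level had a median of 13141 CPM, against 11841 CPM in Smart-Seq2 cells. Scaled by TMM over all human libraries, replicate 5 of variant 3 lay at 9270 CPM. The other variant 3 cells lay at 14665 to 19199 CPM on that scale, above all Smart-Seq2 cells (at most 13390 CPM). Past 2-fold 20 of 75 genes were higher and 30 lower, where 21.6% and 39.7% of all genes were, so wide shifts were not particular to the family. Its log2 ratios ran from -7.92 to 2.01. MRPL12 was at 0.323 to 2.20 CPM (median 0.821) in the 6 variant 3 cells and 39.5 to 727 CPM (median 425) in Smart-Seq2 cells. Summed over cells it was at 0.973 CPM (95% Poisson interval 0.790 to 1.19) against 477 CPM (472 to 482), a log2 ratio of -7.92. MRPL23 (0.0843 to 1.70 CPM), MRPS2 (0 to 14.8 CPM), MRPS34 (0.337 to 13.7 CPM) and MRPL41 (0 to 11.3 CPM) were likewise below every Smart-Seq2 cell (log2 ratios -6.48, -5.80, -5.70 and -5.60). MRPS2 had no read in 4 of the 6 cells, and 16 of 456 values of the family were 0, where 3 reads would have been 0.108 to 0.393 CPM.

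On the other side of variant 3, MRPL39 was at 35.1 to 383 CPM (median 233) against 28.3 to 143 CPM, a log2 ratio of 2.01 with overlap. MRPL33 was at 126 to 311 CPM against 35.1 to 86.1 CPM (1.84), every cell above every Smart-Seq2 cell. MRPS31 (1.95), MRPL1 (1.79) and MRPL42 (1.58), the last with 479.7 to 1317 CPM, were also higher; MRPL42P5 is a pseudogene entry of its own. In all, 4 genes were above and 13 below without overlap, where 2.19% and 13.2% of all genes were.

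Ratios of variant 3 and SMART-Seq were lower in genes of higher transcript GC. In variant 3 the median log2 ratio was 1.21 in the 25 genes with the lowest GC, -0.06 in the 26 between and -3.07 in the 25 with the highest GC, with 16, 2 and 2 genes higher and 2, 10 and 19 lower past 2-fold, counted over all 76 members, of which 1 was under 20 CPM. Spearman's rho between GC and ratio over the 76 genes, which share libraries, was -0.76, as a description. The 10 genes under 0.1 of their Smart-Seq2 level all had a GC of 60.5% or more. In SMART-Seq the medians of these 3 sets were 0.93, 0.02 and -0.84 and rho was -0.59, whereas in variant 4 they were 0.05, 0.16 and 0.21.

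**Figure D4:**
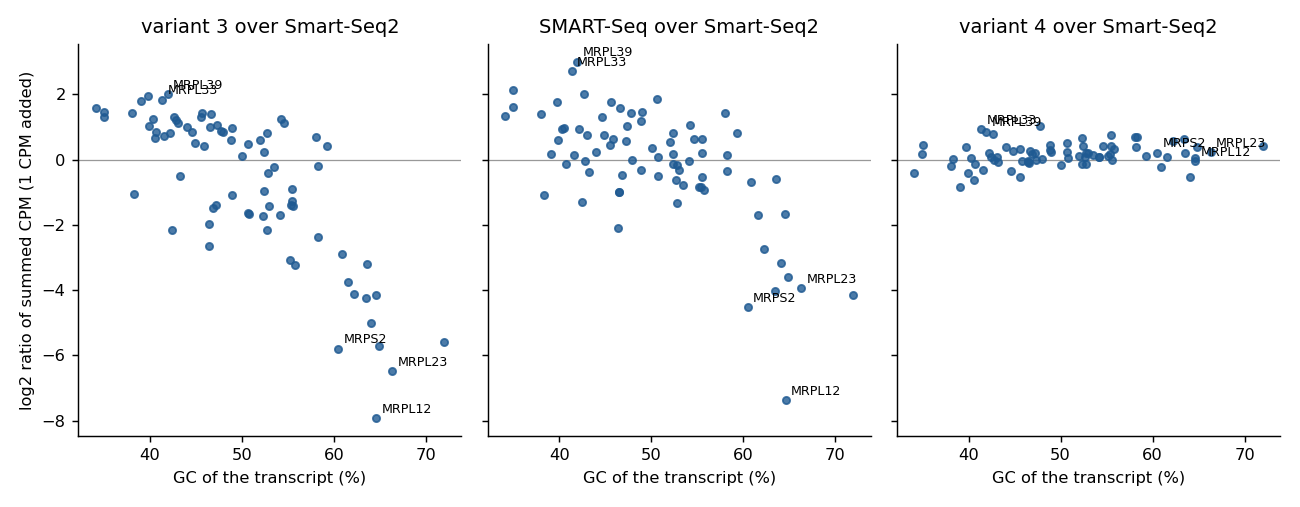
Log2 ratio of summed CPM (1 CPM added) of each of the 76 genes over Smart-Seq2 cells against the GC percent of its transcript, for variant 3, SMART-Seq and variant 4. Points fall steeply above about 60% GC in variant 3 and SMART-Seq, with MRPL12 at -7.92 and -7.37, and stay near 0 in variant 4.

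SMART-Seq cells had the highest median sum among single cells, 14675 CPM (13522 to 15646). Past 2-fold 18 genes were higher and 14 lower than in Smart-Seq2 cells, where 19.5% and 35.4% of all genes were. MRPL39 was at 230.4 to 698 CPM in the 4 cells, above the 28.3 to 143 CPM of Smart-Seq2 cells (log2 ratio 3.00). MRPL33 was at 330.4 to 431 CPM (2.71), MRPL50 at 258 to 826 CPM (2.15), MRPS33 at 273 to 378 CPM (2.01) and MRPL36 at 204 to 553 CPM (1.87), each with every cell above every Smart-Seq2 cell. MRPL12 was at 1.07 to 4.15 CPM (-7.37), MRPS2 at 0.120 to 20.5 CPM (-4.52) and MRPL41 at 0 to 23.8 CPM (-4.16), all below every Smart-Seq2 cell. MRPS26 (-4.03) and MRPL23 (-3.93) followed. In all 16 genes were above and 5 below without overlap (6.03% and 9.39% of all genes), and MRPS18A and MRPS18C were among those above, with log2 ratios of 1.42 and 1.41, while MRPS18B was at 109 to 214 CPM against 4.92 to 259 CPM.

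In CPM, DG-75 cells held less of the family than most HEK293T cells with the same protocol. Their summed level ranged from 6812 to 9974 CPM (median 7481). In CPM 6 of the 7 HEK293T cells lay above that range, replicate 2 with 6107 CPM below it. Scaled by TMM over all human libraries, the lines overlapped more, with DG-75 cells at 6493 to 11137 CPM. On that scale HEK293T cells at 7399, 9307, 10501 and 11100 CPM lay within the DG-75 range. The other HEK293T cells, at 12313 to 13390 CPM, lay above it. Of 76 log2 ratios 58 were below 0 and the median was -0.67, against 0.00 for all genes. Past 2-fold 0 were higher and 23 lower of 75, where 24.9% and 26.2% of all 8751 genes were. The large subunit series had 16 of 47 lower, with a median of -0.79, and the small subunit series 8 of 29, with a median of -0.50, counted over all members. Without any single cell the median lay between -0.76 and -0.62.

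MRPL12 had the lowest ratio. In DG-75 cells it was at 0.508 to 103 CPM (median 28.5) and in HEK293T cells at 39.5 to 727 CPM (median 425), ranges that overlapped through the low HEK293T cell. Summed, it was at 47.5 CPM (45.3 to 49.8) against 477 CPM, a log2 ratio of -3.30. MRPL23 was at 0 to 39.1 CPM (median 6.88) against 50.3 to 185 CPM, below in all 7 cells (-2.96), with no read in 2 cells. MRPS27, a small subunit protein without a bacterial relative (-1.90), MRPL24 (-1.83) and MRPL40 (-1.68) were next and overlapped, and MRPL55, at 15.7 to 119 against 137 to 259 CPM (-1.54), was the only other gene of the family without overlap, named here after its values were seen. The share of all genes without overlap between the lines is not given here, so these 2 genes are no result about the family.

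The highest ratios in DG-75 stayed under 2-fold. MRPS16, the relative of bacterial S16, was at 137 to 733 CPM (median 375) against 88.0 to 338 CPM (median 222), a log2 ratio of 0.78. MRPS18B (0.68), MRPL48 (0.67), MRPL33 (0.66) and MRPS35 (0.61) followed, all with overlap. MRPS18A and MRPS18C lay below 0 (-0.65 and -0.50). Within the stalk MRPL11 (-1.39) and MRPL12 were lower past 2-fold, and MRPL10 (0.25) and MRPL53 (0.39) were not. Between DG-75 cells the genes varied more than between HEK293T cells, with a median SD of log2(CPM + 1) of 1.07 against 0.68 (0.40 without replicate 2 of HEK293T), and so did all genes (2.19 against 1.04, and 0.73 without it); DG-75 libraries were shallower, with 2.24 to 7.88 M reads against 5.29 to 16.6 M. Of the further lists, 2 of 7 other ribosomal proteins (ICT1 and GADD45GIP1), 3 of 10 translation factors and 4 of 19 assembly genes at 20 CPM or more were lower past 2-fold, and 0, 2 and 1 were higher.

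**Figure D5:**
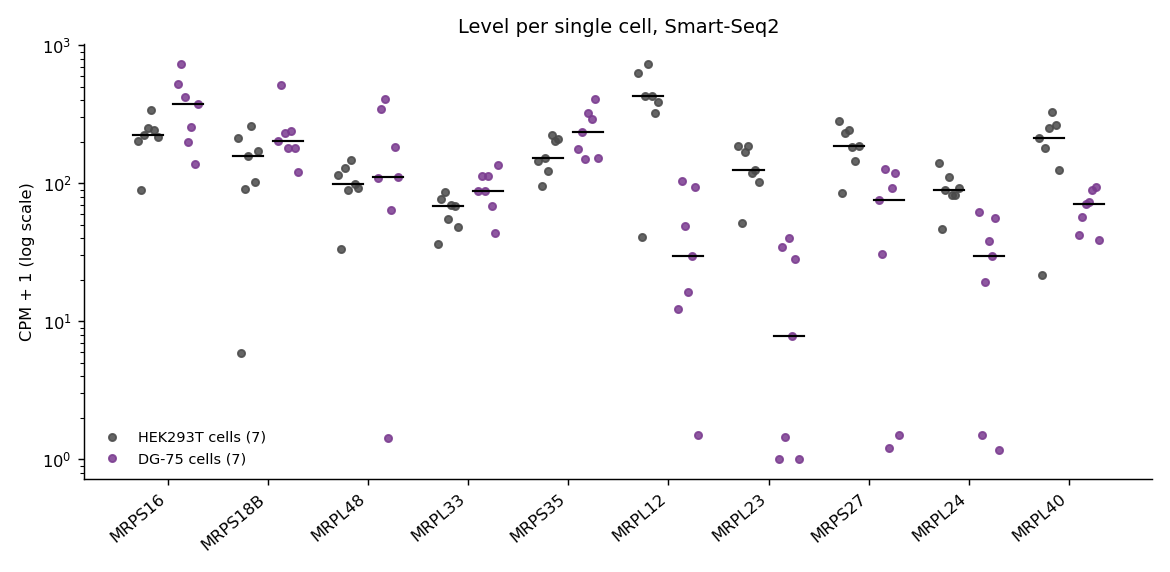
CPM plus 1, on a log axis, of the 5 genes with the highest and the 5 with the lowest ratio of DG-75 over HEK293T in each single cell made with Smart-Seq2; points are cells (7 per line) and bars medians. MRPL12 and MRPL23 have medians of 28.5 and 6.88 CPM in DG-75 against 425 and 124 CPM in HEK293T, while the 5 higher genes overlap widely.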

How the data were processed

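The submitters' processing notes name STAR and the builds hg19 and GRCh37 for human libraries, without their roles; no version, counting tool, strand setting or rule for multiply matching reads is given in the sources used here. Each library, per the file headers, has a count of reads per gene, whole numbers as deposited, and an RPKM deposited by the authors beside it, used here only for levels per length. Without molecular identifiers, PCR copies count as reads, so the intervals and floors printed cover only counting error.

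Counts of a symbol were summed, and CPM are per 1000000 gene reads. Dilutions and pools were tested over all genes with edgeR 4.0.16 (quasi-likelihood F test, TMM, filterByExpr, two-sided, Benjamini-Hochberg threshold 0.05) in R 4.3.3, with only the groups compared in a fit; SE are those of the log2 fold change, derived from the F statistic. Alternatives were DESeq2 1.42.0, library totals, no filter, the replicate block, all 6 input groups in 1 fit, a length and GC offset (natural splines with 4 degrees of freedom), single replicates left out and, added after seeing the data, the libraries with shared numbers without the block, the spread without Smart-Seq2 replicate 2 and levels per transcript length. Transcript length and GC came from GENCODE 29 transcripts matched by RefSeq accession. The replicate block was taken as pairing only for 100 and 50 cells, where libraries of the same number had correlated deviations (r = 0.14, 0.50 and 0.67, each above 0.1). For 100 and 10 cells r was 0.075, 0.23 and 0.37, and for 50 and 10 cells 0.006, 0.26 and 0.35. Some libraries of the same number thus deviated together there as well. The labels do not say what a number marks. Single cells were summed by group, with exact 95% Poisson intervals and log2 ratios with 1 CPM added, and genes at 20 CPM or more in either group were counted past 2-fold. Zero values are set against 3 reads.

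The genes, lists and tests were chosen with earlier results of these data known. Named genes of a comparison are up to 5 per direction with the largest fold change that passed without overlap and reached 20 CPM, or in single cells the largest ratios at 50 CPM or more with reads in all cells or all but 1; in addition the 5 highest and lowest levels, the 5 most and least variable genes in Smart-Seq2 cells and the MRPS18 paralogues. The YY1 motif was shortened by 1 base after counts of the longer form, found in 13 of the windows as well, had been seen. The scripts were tested on simulated data. Mouse libraries were not analysed here.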

Additional observations from a re-analysis of the deposited data

Results flagged for a closer look

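In groups of 4 to 10 libraries, 105 sets of values were examined for a lone highest or lowest library (Dixon's 95% limit, which chance passes in about 1 set in 20), and 10 passed. Summed levels made up 3 of these: a Smart-Seq2 HEK293T cell at 6107 CPM, with the next at 11148 CPM, a variant 1 cell at 19431 CPM, with the next at 13954 CPM, and a variant 3 cell at 7569 CPM, with the next at 12908 CPM. MRPL39 was at 316 CPM in a variant 1 cell, the next being 91.0 CPM, and at 143 CPM in a Smart-Seq2 cell, the next being 57.0 CPM. MRPL17 was at 192 CPM in a variant 1 cell (next 85.7 CPM) and MRPL54 at 149 CPM in a variant 2 cell (next 73.9 CPM). MRPL41 was at 11.3 CPM in a variant 3 cell (next 1.05 CPM), MRPL50 at 826 CPM in a SMART-Seq cell (next 322 CPM) and MRPS18B at 512 CPM in a DG-75 cell (next 237 CPM).

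The source effect differed between inputs by the interaction test for 21 genes upwards and 1 downwards. The named ones were MRPL23 (2.07), MRPL13 (1.42), MRPS33 (1.26), MRPL51 (1.21), MRPL50 (1.16) and MRPL49 (-1.04), in log2 units.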

How the results depend on the processing

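Under the alternatives, 409 fold changes of named genes kept direction and threshold, 88 no longer passed and 2 reversed. All 124 medians of single-cell ratios and 158 named ratios moved by less than their spread between cells. The 2 other named ratios were MRPL12 and MRPL23 in variant 3 (-8.80 and -7.64 with 0.1 CPM added). Medians near 0 could still change sign. With single cells left out the median ran from -0.046 to 0.169 for variant 1 and from -0.005 to 0.082 for variant 2. Of the counts of genes, 150 stayed within 1.5 times and 68 did not. For moved values the cause was not tested.

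Counts are given as higher and lower. With the length and GC offset they were 24 and 21 for 100 cells against 1 ng, where MRPL33 (-0.043) and MRPS36 (-0.36) reversed, 9 and 11 for 10 cells against 100 pg, 20 and 9 for 100 against 10 cells, 1 higher for 100 against 50 cells, 2 lower for 50 against 10 cells, 17 higher for 1 ng against 10 pg, and 9 and 3 for the interaction. With all 6 input groups in 1 fit there were 2 lower for 100 cells against 1 ng, 12 higher for 10 cells against 100 pg, 0 lower for 100 against 10 cells, 1 and 0 for 50 against 10 cells, 17 and 2 for 1 ng against 10 pg, and 12 and 0 for the interaction. DESeq2 gave 1 higher for 100 against 50 cells, 16 for 50 against 10 cells, 1 for 1 ng against 100 pg, and 12 and 3 for 1 ng against 10 pg. Library totals shifted the median of all genes to -0.26 (100 cells against 1 ng) and to -0.31 (interaction), and gave 3 lower for 100 against 10 cells and 12 and 4 for the interaction. Without the filter 2 were lower for 100 against 10 cells and 2 for the interaction. Over all genes, the offset gave 2173 higher of 11028 for 1 ng against 10 pg. It gave 22 higher of 11222 for 100 against 50 cells and 949 lower of 11312 for 50 against 10 cells. With all 6 groups in 1 fit, 3667 of 12653 genes were higher and 631 lower for 1 ng against 10 pg. That fit gave 58 and 245 for 50 against 10 cells, and 2190 lower for 100 cells against 1 ng.

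Shared replicate numbers were taken as pairing only for 100 against 50 cells, where the replicate block gave 31 higher. Elsewhere not every correlation was above 0.1, although deviations were partly correlated between 10 cells and the larger pools. With the block there was 1 lower for 10 cells against 100 pg. For 100 against 10 cells there were 54 higher and 3 lower (2149 and 2571 of all 11514 genes). For 50 against 10 cells there were 34 higher (1219 of all 11451 genes). There were 0 higher for 1 ng against 10 pg (0 of all 10605 genes), and 6 and 0 for the interaction. The same libraries without the block, chosen after seeing the data, gave 19 higher for 10 cells against 100 pg, 0 for 1 ng against 10 pg, and 5 and 0 for the interaction.

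Leaving out single libraries gave 48 to 58 higher and 3 to 6 lower for 100 cells against 1 ng, 14 to 26 and 0 to 1 for 10 cells against 100 pg, 32 to 46 and 0 to 5 for 100 against 10 cells, 0 to 1 and 0 for 100 against 50 cells, 1 to 17 and 0 to 1 for 50 against 10 cells, 0 and 0 for 1 ng against 100 pg, 0 to 28 and 0 to 9 for 1 ng against 10 pg (the high ends with 1 library of 10 pg), and 17 to 31 and 1 to 8 for the interaction. Counts over all genes moved as well. For 50 against 10 cells 62 of all 11933 genes rose without replicate 1 of the 50 cells, and 504 of 11944 without replicate 2. For the interaction 546 of all 12499 genes passed upwards without replicate 3 of 1 ng, and 1310 of 12499 without replicate 3 of the 100 cells. Scaled by TMM over all human libraries, the summed level was 21257 CPM in 100 cells, 13945 in 10 cells, 12296 in 1 ng, 11043 in 100 pg, 9619 in 10 pg, 17298 in SMART-Seq and 15362 in variant 3.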
